A study of Homo sapiens with 4 samples.

Results

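The RAB genes encode the Rab proteins, the largest branch of the small GTPases that direct membrane traffic. Members were chosen by symbol, as RAB followed by a number with at most 1 letter and 1 further digit, and 59 of the 16708 genes listed in at least 1 library matched. The mRNA levels of this family were compared between control- and QKI-knockdown BEAS2B cells, a virus-transformed human cell line from bronchial epithelium. *RAB12* was selected on its RPKM in this same comparison, for being lower in the QKI-knockdown library of both replicate numbers, so its values, and its place in the counts of tested genes, are given here as a description and support nothing.

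A Rab protein cycles between a GTP-bound form, which sits on a membrane and recruits effectors, and a GDP-bound form, which is pulled off the membrane by the GDI proteins. Exchange factors (GEFs) load GTP, GTPase-activating proteins (GAPs) trigger its hydrolysis, and a prenyl anchor holds the protein on the membrane. Each Rab marks a particular compartment, from the endoplasmic reticulum and Golgi to endosomes, lysosomes and secretory granules. In airway epithelium these routes carry receptors, adhesion proteins and secreted products to the apical or basolateral surface.

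All cells were stably transduced with a retrovirus that expressed an shRNA. The control cells (sh-Ctrl in the labels) carried an shRNA against luciferase, sh-Luc, and the QKI-knockdown cells (sh-QKI) carried sh-Q3, which targets every isoform of QKI, an RNA-binding protein that recognizes ACTAAC or ACTAAT, written in DNA letters. Each group had 2 libraries, numbered replicate 1 and replicate 2, and whether these came from separate cultures is not stated in the labels or methods. Sequencing was done at 2 read lengths, and the 2 numbers may stand for those runs, which the sources used here do not say. The p-values rest on the spread between them or, where the replicate number was added to the fit, on how far the knockdown difference varied between the numbers. Either may thus be technical alone. With 1 shRNA against QKI in these libraries, loss of QKI and any other effect of that shRNA cannot be told apart.

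Levels were given as RPKM, reads scaled to gene length and to library size, and the read totals recovered from them were between 20052951 and 34862008 per library. *QKI* itself was at 8.94 and 14.6 RPKM in the control libraries and at 2.52 and 3.85 RPKM in the QKI-knockdown libraries. Of the 7 epithelial markers, *KRT18*, *EPCAM*, *KRT7* and *KRT8* averaged at least 0.5 RPKM, *CDH1* and *KRT19* were below that level and *KRT5* was not listed. The summed epithelial markers were at 683 and 216 RPKM in control and 649 and 255 RPKM in QKI-knockdown replicates 1 and 2. Of the fibroblast markers, *COL1A1* and *PDGFRB* averaged at least 0.5 RPKM, with a summed level of 58.6 and 29.0 RPKM in control and 61.5 and 41.3 RPKM in QKI-knockdown cells. Of the leukocyte markers, *CD68* alone reached that level, with a sum between 12.2 and 17.3 RPKM. No endothelial, neuronal or ciliated and secretory marker reached it. The part of these markers in the results below was not tested.

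The sequences of the shRNA and of *RAB12* are shown first, because a short guide RNA can pair with more than 1 transcript. The target strand and the guide of sh-Q3 were read from the oligonucleotides of the study, and capitals mark guide bases 2 to 8 and the bases of the target that pair with them.
sh-Q3 target: gaagagagcagTTGAAGAa
sh-Q3 guide: tTCTTCAActgctctcttc
The 19-base target was found whole in a coding exon of *QKI*, at chr6:163956115-163956133 of hg19, on the plus strand.

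*RAB12* lies on chromosome 18 of hg19 from 8609435 to 8639381 on the plus strand (ENSG00000206418). Its 3′ UTR of 1121 annotated bases held no copy of TTGAAGA, the match to guide bases 2 to 8. It held 1 copy of TGAAGAA, the match to guide bases 2 to 7 followed by A, a form searched only after the *RAB12* sequence had been seen. It also held 1 copy each of ACTAAC and ACTAAT, the letters that QKI recognizes. The 3 windows have the matched bases in capitals and come from chr18:8638510-8638534, chr18:8638372-8638395 and chr18:8639333-8639356.
RAB12 TGAAGAA: cttctaataTGAAGAAtgggagaaa
RAB12 ACTAAC: gagctatacACTAACttgtaaata
RAB12 ACTAAT: tctttctacACTAATgaagtgcaa
All were searched on the transcript strand only, in the 3′ UTR of the annotated transcript chosen for each gene. The other strand of the sh-Q3 hairpin was not searched as a guide. TTGAAGA and TGAAGAA share 6 bases where they overlap.

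These letters were common. TTGAAGA was in the annotated 3′ UTR of 19.1% of 11400 tested genes and of 15 of the 48 tested RAB genes, and TGAAGAA in 21.9% of the tested genes and 16 of the RAB genes. Among the 734 tested genes whose 3′ UTR was about as long as that of *RAB12*, 14.2% held this match. Of the letters that QKI recognizes, ACTAAC was in 18.8% of the tested genes and 13 RAB genes, ACTAAT in 27.8% and 20, and both in 9.57% and 10. Among the 734 genes of like 3′ UTR length, ACTAAC was in 11.6% and ACTAAT in 18.7%. Runs shared with the 19-base target of sh-Q3 were searched over the whole annotated transcript, not the 3′ UTR alone. The longest in *RAB12* was 7 bases, found at several places, including the TGAAGAA above. Of the tested genes 57.9% shared at least 8 bases, and the longest run in a tested RAB gene was 10 bases. The median log2 difference between QKI-knockdown and control was 0.02 for tested genes with TTGAAGA and 0.04 for those without, and likewise 0.02 and 0.04 for TGAAGAA. The order differed between the numbers, since the medians for TTGAAGA were 0.06 with and 0.01 without it in number 1, and -0.02 with and 0.06 without it in number 2. For the RAB genes the medians were 0.02 with and 0.03 without TTGAAGA, and 0.02 both with and without TGAAGAA. A match of letters says nothing about whether the guide or QKI bound there.

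*RAB12*, whose product acts in the transport of the transferrin receptor from recycling endosomes to lysosomes, was lower in both QKI-knockdown libraries than in both control libraries. Its level was 16.1 and 23.1 RPKM in control replicates 1 and 2, and 8.78 and 11.5 RPKM in QKI-knockdown replicates 1 and 2. The groups did not overlap, with means of 19.6 ± 4.96 and 10.2 ± 1.94 RPKM (SD, n = 2). These levels rested on 691 and 1716 reads in control and 386 and 859 reads in QKI-knockdown cells. Within replicate number 1 the QKI-knockdown level was 0.545 times the control level (95% counting interval 0.480 to 0.618), and within number 2 it was 0.498 times (0.459 to 0.541). The intervals here and below are exact binomial ones on reads recovered from the RPKM and cover counting error only. On the log2(RPKM + 0.5) scale used for all differences, *RAB12* was lower by 0.84 and 0.97 within the replicate numbers, and the mean difference was -0.91. Fewer cells with the transcript and less transcript per cell cannot be told apart in RNA from whole cultures.

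**Figure D1:**
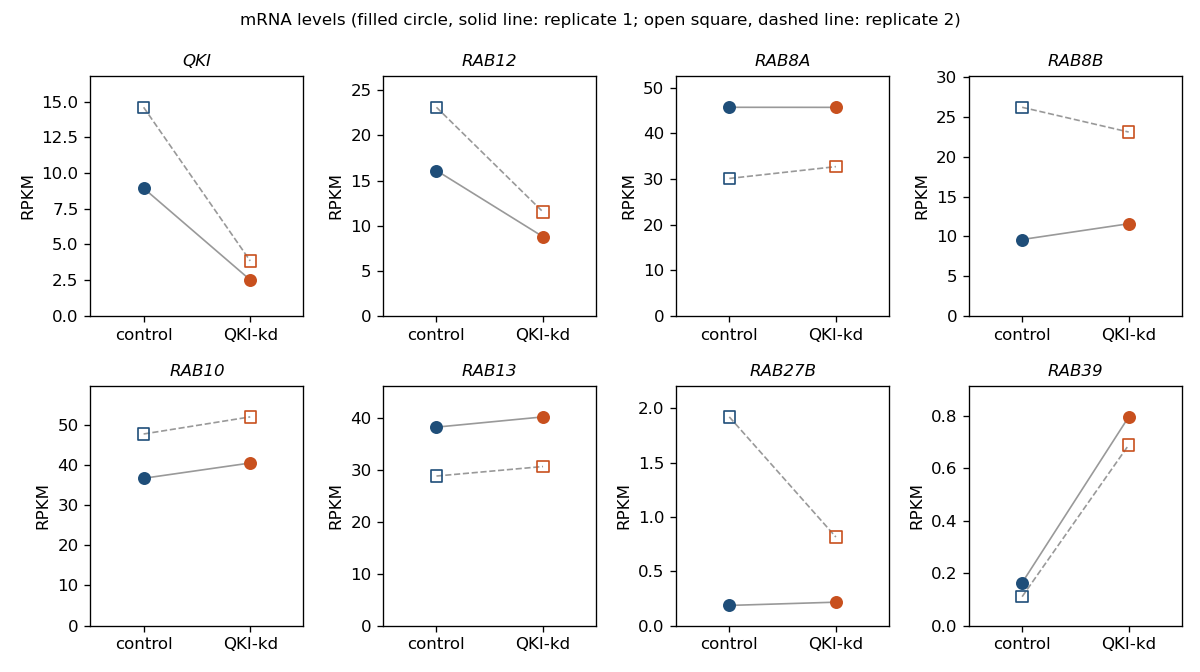
RPKM (linear axes from 0) of *QKI*, *RAB12*, 4 relatives of *RAB12*, *RAB27B* and *RAB39* in control- and QKI-knockdown cells, 1 point per library, with lines joining libraries of the same replicate number. *RAB12* went from 16.1 and 23.1 to 8.78 and 11.5 RPKM, while *RAB10* and *RAB13* were slightly higher in QKI-knockdown cells within both numbers.

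No other tested member had a difference of this size in both replicate numbers. Differences were tested with limma for the 48 members that averaged 0.5 RPKM or more over the 4 libraries, and 0 members passed an adjusted p of 0.05, as did 0% of the 11829 genes tested. With the replicate number added to the fit as a block, 1 member was called (*RAB12*, beside 0.854% of the tested genes), and also 1 with each library centred on its median (0.964%), but 0 when the expression limit was dropped. Voom of limma on the recovered reads with the block called 2, *RAB12* and *RAB27B* (1.16%). At an unadjusted p under 0.05 without the block there was 1 member, *RAB12*, beside 13 genes in all (0.11%). A difference of 1.5-fold or more within both numbers was seen downwards in 1 member, *RAB12*, beside 0.127% of the tested genes, and upwards in 0, beside 0.144%. At 1.2-fold or more, *RAB12* and *RAB42* were lower (1.3% of the tested genes) and 0 members were higher (1.63%). The counts of lower genes hold *RAB12* by the way it was chosen, so nothing is read from them about *RAB12*.

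The gap between *RAB12* and the rest of the family was wide on this scale. The next lowest member, *RAB27B*, had a mean difference of -0.41, 0.50 above that of *RAB12*, and the other 47 members lay between -0.41 and 0.34. Among the 19 other members at 0.5 to 2 times the mean level of *RAB12*, the differences ran from -0.18 to 0.24. Over all 4603 tested genes at such levels the SD of the difference was 0.167 within number 1 and 0.178 within number 2, and 1 of these genes lay lower than *RAB12*. Of all 11829 tested genes, 7 had a lower mean difference than *RAB12*, and 4 were as low within both numbers, namely *GABRA3*, *QKI*, *IGFN1* and *HIST1H2BL*, named after their values were seen.

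**Figure D2:**
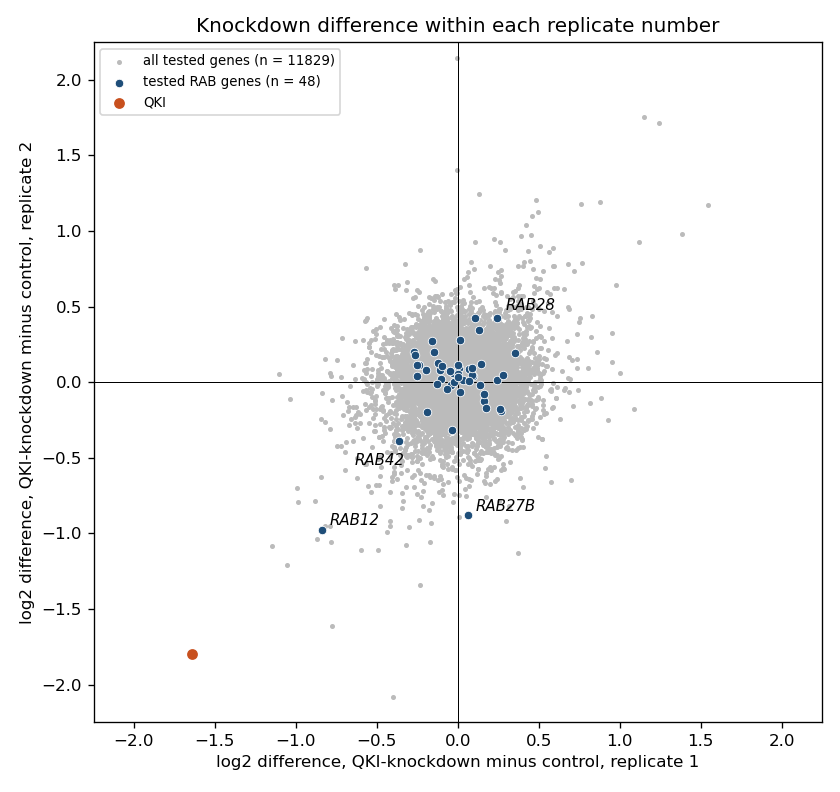
Log2 difference between QKI-knockdown and control within replicate number 1 (horizontal axis) and number 2 (vertical axis), for 11829 tested genes (grey) and 48 RAB genes (blue). *RAB12* lies at -0.84 and -0.97, *RAB27B* at 0.06 and -0.88, and most RAB genes lie inside the grey cloud around 0.

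The family as a whole lay close to 0. The median difference was 0.02 over the 48 tested members and 0.03 over all tested genes, and 41 of 48 members (85.4%) lay within 0.2 of 0, beside 87.0% of all tested genes. The direction was the same within both numbers for 24 members (50.0%), beside 48.3% of the tested genes. The groups did not overlap in 1 member that was lower, *RAB12* (2.89% of the tested genes), and in 2 that were higher, *RAB15* and *RAB20* (5.71%). Standard errors of the mean difference ran from 0.24 to 0.72 over the members without the block and from 0.115 to 0.165 with it. *RAB42* and *RAB28*, at -0.37 and 0.34, had standard errors of 0.150 and 0.134 with the block and did not pass an adjusted p of 0.05 in either fit of limma. The mean difference turned its sign in 43 of the 48 members when 1 or another library was left out. The sign was kept in *RAB15*, *RAB20*, *RAB28* and *RAB30* and in *RAB12*. For *RAB12*, *RAB15* and *RAB20* this follows from the groups that do not overlap. Such a leave-out sets 1 library against 2 without the block, so any difference between the replicate numbers enters it.

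BEAS2B cells transcribed most of the family. By mean RPKM, 19 members were at 20 or more, 17 between 5 and 20, 12 between 0.5 and 5 and 11 below 0.5. Summed over the family, the level was 957 and 913 RPKM in control and 911 and 936 RPKM in QKI-knockdown replicates 1 and 2, between 0.403% and 0.487% of all RPKM. The 5 most abundant members of a library held between 33.2% and 41.5% of the family sum. The gene lengths recovered from the RPKM steps were between 0.36 and 3.70 times the annotated exons of the tested members. For *RAB12* the recovered length was 0.86 times. These may not be the lengths the authors used, which limits comparisons of levels between genes.

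The most abundant member was *RAB7A*, the Rab of late endosomes, with 143 and 105 RPKM in control and 134 and 113 RPKM in QKI-knockdown cells. *RAB1B*, which acts between endoplasmic reticulum and Golgi, was at 81.3 and 52.7 RPKM in control and at 67.3 and 60.5 RPKM in QKI-knockdown cells, and its close copy *RAB1A* at 53.1 and 50.1 RPKM and at 49.3 and 50.9 RPKM. In both of these genes the QKI-knockdown value was lower in number 1 and higher in number 2. *RAB32*, known for the transport of melanosome proteins and for mitochondria, was at 57.2 and 48.3 RPKM in control and at 48.0 and 49.8 RPKM in QKI-knockdown cells. *RAB5C*, one of the Rabs of early endosomes, was at 62.7 and 37.1 RPKM in control and at 57.6 and 40.7 RPKM in QKI-knockdown cells. The groups overlapped in all 5 genes. *RAB7A* was highest and *RAB1B* second in every library, while *RAB1A*, *RAB32* and *RAB5C* changed places from library to library.

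**Figure D3:**
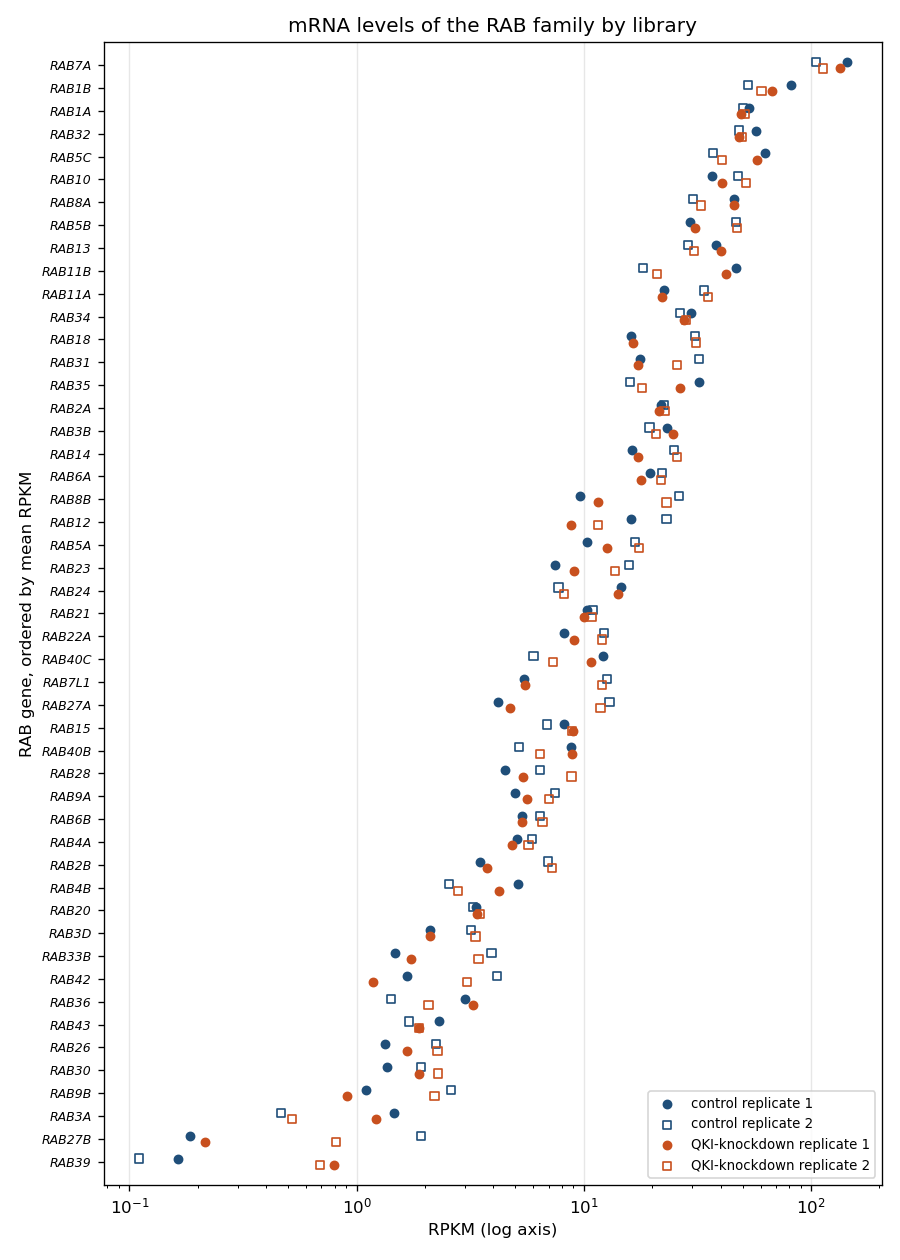
RPKM (log axis) of the 49 RAB genes that averaged 0.5 RPKM or more in at least 1 group, 1 point per library, ordered by mean RPKM. *RAB7A* is at 105 to 143 RPKM at the top, and the QKI-knockdown points of *RAB12*, at 8.78 and 11.5 RPKM, lie to the left of both control points.

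The 4 relatives grouped with *RAB12* as Rab8-like, which carry cargo to the plasma membrane and the primary cilium, did not share its difference. *RAB8A* was at 45.7 and 30.1 RPKM in control and at 45.7 and 32.7 RPKM in QKI-knockdown cells, with a mean log2 difference of 0.06. *RAB8B* was at 9.60 and 26.2 RPKM and at 11.6 and 23.1 RPKM, with differences of 0.26 and -0.18 within the numbers. *RAB10*, which acts in the delivery of glucose transporters and basolateral proteins, was at 36.6 and 47.7 RPKM in control and at 40.4 and 51.9 RPKM in QKI-knockdown cells, a difference of 0.13. *RAB13*, a Rab of tight junctions, was at 38.2 and 28.8 RPKM and at 40.2 and 30.6 RPKM, a difference of 0.08. None of these 4 passed the test with or without the block. Without the block each mean difference was smaller than its standard error, which was 0.31 or more. With the block the standard errors ran from 0.115 to 0.120, and the difference of *RAB10* was larger than its own, 0.115.

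Among the 13 members of the endoplasmic reticulum and Golgi, 10 were tested, with a median difference of 0.00 and a range from -0.07 to 0.27. The upper end was *RAB30*, a Golgi Rab, at 1.36 and 1.93 RPKM in control and at 1.87 and 2.27 RPKM in QKI-knockdown cells. The groups overlapped, since control replicate 2 lay above QKI-knockdown replicate 1. The lower end was *RAB6A*, which acts in retrograde transport through the Golgi, at 19.6 and 22.1 RPKM in control and at 17.9 and 21.9 RPKM in QKI-knockdown cells. *RAB6A* is nearly identical to *RAB6C*, which was listed at 0 to 0.412 RPKM, and reads of this pair may have been split or left out as ambiguous. *RAB43* shares exons with a readthrough transcript with *ISY1*, so its values, with a difference of -0.06, are uncertain too. Overlap with another coding gene was common in the family, as the annotated spans of 19 of the 48 tested members crossed one, 9 of them on the same strand. *RAB1A*, *RAB5A*, *RAB5C*, *RAB8A*, *RAB11A*, *RAB13*, *RAB15*, *RAB23*, *RAB27A* and *RAB42* were among these, and how reads from the shared stretches were assigned is not stated in the sources used here.

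Of the 16 members of early and recycling endosomes, 14 were tested, with a median of 0.02 and a range from -0.18 to 0.24. *RAB15*, a Rab of early and recycling endosomes, was at 8.17 and 6.91 RPKM in control and at 8.98 and 8.90 RPKM in QKI-knockdown cells, without overlap. *RAB20* was at 3.36 and 3.25 RPKM and at 3.37 and 3.51 RPKM, also without overlap, but by 0.00 within number 1 and 0.09 within number 2. *RAB5A*, the best known early endosome Rab, was at 10.4 and 16.8 RPKM in control and at 12.7 and 17.4 RPKM in QKI-knockdown cells, a difference of 0.16. *RAB31*, which acts between the trans-Golgi network and endosomes, was at 17.7 and 32.0 RPKM and at 17.3 and 25.7 RPKM, a difference of -0.18 that came mostly from number 2 (-0.31). *RAB11A* and *RAB11B*, Rabs of the recycling endosome, had mean differences of 0.01 and 0.03. *RAB25*, the epithelial member of the RAB11 group, and *RAB17*, another Rab of polarized epithelial cells, stayed below 0.2 RPKM in every library.

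Of the 11 members of late endosomes, lysosomes and related organelles, 8 were tested, with a median of -0.01 and a range from -0.19 to 0.27. *RAB36* was at 3.01 and 1.41 RPKM in control and at 3.27 and 2.07 RPKM in QKI-knockdown cells, a difference of 0.27. *RAB9B*, a relative of the late endosome Rab *RAB9A*, was at 1.10 and 2.60 RPKM in control and at 0.91 and 2.20 RPKM in QKI-knockdown cells, a difference of -0.19 that was nearly equal within both numbers. Neither gene passed the test and the groups overlapped in both.

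*RAB39* (now *RAB39A*), which acts in late endosomes and phagosomes, was the member with the widest relative difference upwards, but at a low level. It was at 0.16 and 0.11 RPKM in control and at 0.80 and 0.69 RPKM in QKI-knockdown cells, from 6 and 7 reads and from 30 and 44 reads. The QKI-knockdown level was 4.87 times the control level within number 1 (95% counting interval 2.0 to 14.3) and 6.26 times within number 2 (2.80 to 16.5). Its mean RPKM over the libraries was below 0.5, so it was not among the tested genes. Of the 49 members averaging 0.5 RPKM or more in at least 1 group, it alone was over 2-fold higher in mean RPKM. The share over all 11955 genes within that limit was 0.226%. *RAB39* met the limit through its QKI-knockdown mean alone, 0.74 beside 0.14 RPKM in control. A gene that low in control can enter this count only as a rise, so nothing is read from its place there. Its neighbours *SLC35F2* and *CUL5*, both within 0.1 Mb, had mean differences of -0.08 and 0.02.

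Of the 8 members of regulated secretion, 6 were tested, with a median of 0.02 and a range from -0.41 to 0.13. *RAB27B*, which docks secretory granules and exosomes, was at 0.19 and 1.92 RPKM in control and at 0.22 and 0.82 RPKM in QKI-knockdown cells. It was the single member over 2-fold lower in mean RPKM (0.309% of genes), and the difference stood in number 2, with 467 and 199 reads, where the QKI-knockdown level was 0.424 times the control level (0.358 to 0.502). In number 1, with 26 and 31 reads, the ratio was 1.16 (0.668 to 2.04). In fits without the block, which the gap between replicate numbers enters, its mean log2 difference was 0.50 without control replicate 2. It was 0.03 without QKI-knockdown replicate 1. *RAB27A*, its close relative, had a difference of 0.02, and *RAB3B*, the most abundant Rab of this group, was at 23.1 and 19.5 RPKM in control and at 24.6 and 20.8 RPKM in QKI-knockdown cells.

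Of the 6 members placed in no group above, 5 were tested, with a median of 0.06. *RAB42* was at 1.66 and 4.16 RPKM in control and at 1.19 and 3.06 RPKM in QKI-knockdown cells, with differences of -0.36 and -0.39 within the numbers. The gene overlaps *TAF12* on the other strand and the sources used here do not say that reads were counted by strand, so reads from the shared stretch cannot be told apart, as for the other overlapping members. *RAB28*, known for its part in photoreceptor cilia, was at 4.48 and 6.44 RPKM in control and at 5.40 and 8.83 RPKM in QKI-knockdown cells, the largest difference upwards of a tested member, 0.34. Within the numbers it was 0.24 and 0.43. Without QKI-knockdown replicate 2 it was 0.0047, without control replicate 1 it was 0.10 and without QKI-knockdown replicate 1 it was 0.67. *RAB28* was no longer the highest member when either control library or QKI-knockdown replicate 2 was left out. These leave-outs were made without the block, so the gap between replicate numbers enters them. *RAB23*, a negative regulator of Hedgehog signalling, was at 7.45 and 15.8 RPKM and at 9.07 and 13.8 RPKM. For *RAB42* and *RAB28* the groups overlapped, and neither passed the test.

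**Figure D4:**
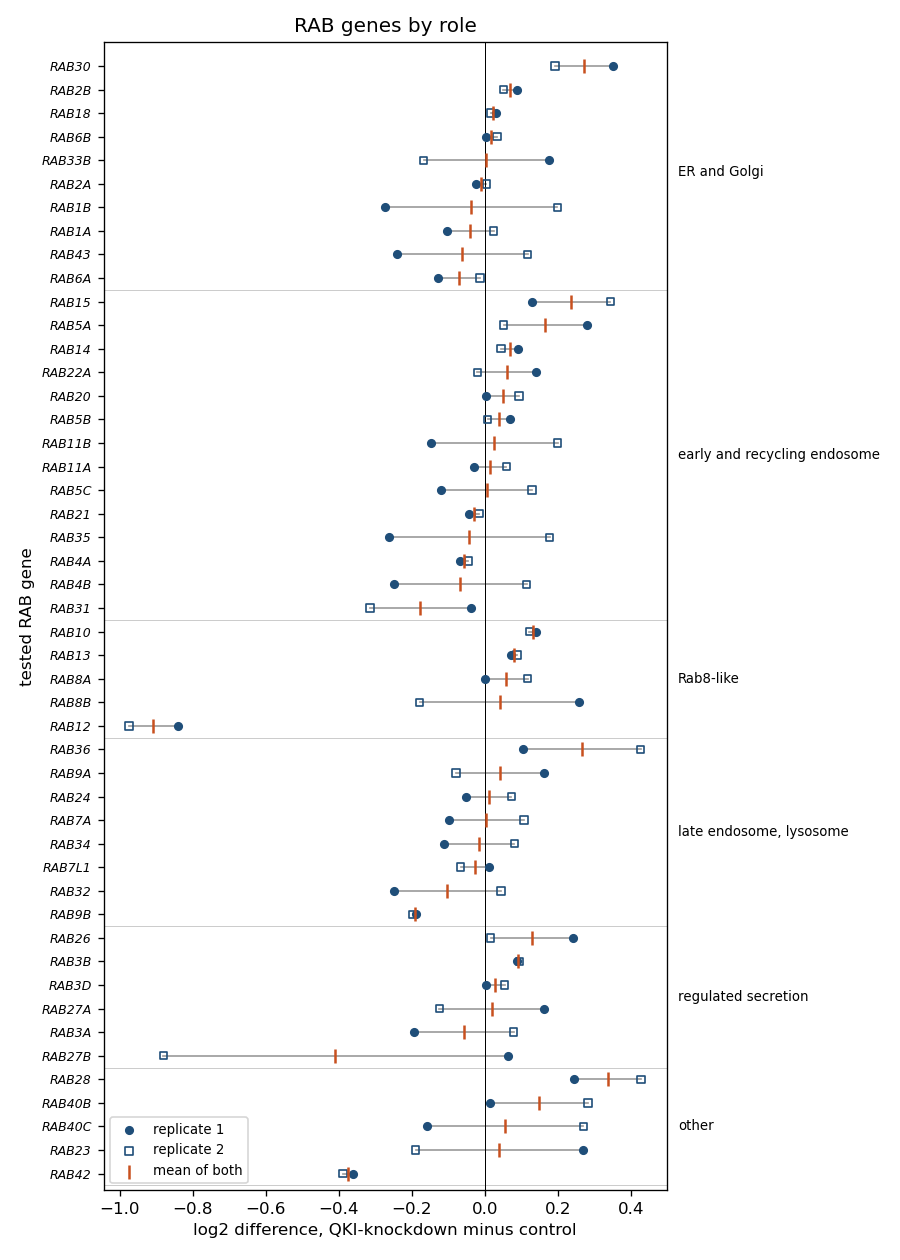
Log2 difference between QKI-knockdown and control for the 48 tested RAB genes by role, within replicate number 1 (filled circles), within number 2 (open squares) and as the mean of both (bars). *RAB12* stands at -0.91, *RAB27B* spans 0.06 to -0.88, and the other means lie between -0.37 and 0.34.

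The libraries differed more by replicate number than by knockdown. For 43 of the 48 members the gap between control replicates 1 and 2 was larger than the knockdown difference within either number. The median size of that gap was 0.60 on the log2 scale in control and 0.49 in QKI-knockdown cells, beside a median knockdown difference of 0.12 within number 1 and 0.10 within number 2. In 43 members it had the same direction in both groups, and in the control libraries it was over 2-fold on that scale for 9 members. *RAB8B* was 1.40 higher and *RAB27A* 1.53 higher in control replicate 2 than in replicate 1, and *RAB11B* was 1.34 lower, at 46.9 and 18.2 RPKM. *RAB12* was 0.51 higher in replicate 2 of the control and 0.37 higher in replicate 2 of the QKI-knockdown cells, so its knockdown difference was larger than its gap between numbers.

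**Figure D5:**
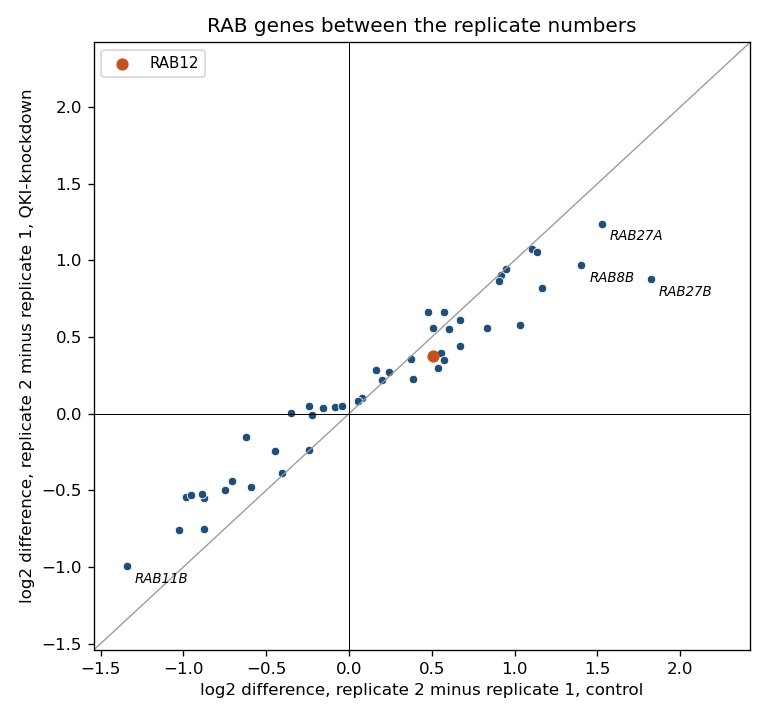
Log2 difference between replicate 2 and replicate 1 in control (horizontal axis) and QKI-knockdown cells (vertical axis) for the 48 tested RAB genes, with the line of equal values. Points run along the line from *RAB11B* at the lower left to *RAB27A* and *RAB27B* at the upper right, and *RAB12* (orange) lies at 0.51 and 0.37.

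The genes around *RAB12* were compared to see whether the region moved with it. *PTPRM*, *KIAA0802*, *NDUFV2*, *ANKRD12*, *TWSG1* and *PPP4R1*, all within 1 Mb, had mean differences between -0.22 and 0.17. *ANKRD12* was at 2.76 and 9.61 RPKM in control and at 3.18 and 6.09 RPKM in QKI-knockdown cells, higher within number 1 and lower within number 2. *RAB31* and *RAB27B*, also on chromosome 18, are described above.

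Of the genes linked to *RAB12* by function, none passed the test. *DENND3*, its exchange factor, was at 2.86 and 2.77 RPKM in control and at 2.85 and 2.80 RPKM in QKI-knockdown cells. *TFRC*, the transferrin receptor, was at 31.7 and 48.3 RPKM in control and at 39.9 and 57.2 RPKM in QKI-knockdown cells, higher by 0.33 and 0.24 within the numbers, with overlap between the groups. *SLC36A4*, an amino acid transporter that Rab12 sends to lysosomes, was at 1.81 and 3.20 RPKM and at 2.01 and 3.65 RPKM. *RILP*, *RILPL1* and *RILPL2*, effectors of lysosomal and phosphorylated Rabs, had differences of 0.20, -0.02 and -0.01. *LRRK2*, the kinase that phosphorylates Rab12 and its relatives, had at most 6 reads in a library, and *PPM1H*, the phosphatase that reverses this, had a mean below 0.5 RPKM, so neither was tested.

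The wider Rab machinery also had 0 of 121 tested genes past the limma threshold, of 142 listed, and 0 at an unadjusted p under 0.05, beside 0% and 0.11% of all tested genes. With the block 1 of them was called (*GCC2*, beside 0.854%), and by voom with the block 2 (*GCC2* and *MLPH*, beside 1.16%). The median difference was 0.05 over 38 exchange factors, 0.04 over 35 GTPase-activating proteins, 0.01 over 7 genes of prenylation and GDI and -0.02 over 41 effectors, beside 0.03 over all tested genes. Among the exchange factors the widest differences with 1 sign were in *DENND2A* and *CCZ1*. *DENND2A* was at 2.08 and 3.76 RPKM in control and 2.54 and 5.85 RPKM in QKI-knockdown cells. *CCZ1*, a subunit of the *RAB7A* exchange factor, had a mean of -0.13, with -0.24 within number 1 and -0.02 within number 2. Among the GTPase-activating proteins the widest were in *TBC1D22A*, lower by 0.51 and 0.21 within the numbers, and in *RABGAP1*, higher by 0.32 and 0.27. *RABGAP1* was at 9.34 and 11.1 RPKM in control and at 11.8 and 13.6 RPKM in QKI-knockdown cells, without overlap. *GDI2*, which extracts Rabs from membranes, had a difference of 0.01.

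Among the effectors, *GCC2*, a golgin that binds Rabs of the trans-Golgi network, was at 2.20 and 6.88 RPKM in control and at 1.90 and 3.06 RPKM in QKI-knockdown cells, lower by 0.17 within number 1 and by 1.05 within number 2. *MLPH*, which links *RAB27A* to myosin, was at 0.64 and 0.82 RPKM in control and at 0.41 and 0.45 RPKM in QKI-knockdown cells, without overlap. *RPH3AL*, a granule effector, was at 2.01 and 0.86 RPKM in control and at 2.12 and 1.76 RPKM in QKI-knockdown cells, with differences of 0.06 and 0.73. *RAB11FIP1*, an effector of the recycling endosome, was higher by 0.18 and 0.31 within the numbers.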

How the data were processed

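RNA-Seq was performed by the authors on total RNA of 2 control and 2 QKI-knockdown BEAS2B libraries, as single-end reads at 2 read lengths. The authors aligned reads with Bowtie, with up to 3 mismatches, to hg19 and to Ensembl exon-exon junctions, left out ambiguous reads, and deposited RPKM, 1 table per library. Neither the Bowtie version nor the counting of overlapping genes was stated in the labels or methods. Genes not listed in a library were set to 0.

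Whole reads were recovered from the RPKM steps (100% whole, relative tolerance 1e-11). In every library their sum over genes exceeded the recovered total, with 30740875 beside 20052951 in control replicate 1. The recovered reads may thus not be the true reads of each gene, which limits the counting intervals and voom. Why the sums were larger was not tested. Differences were tested on log2(RPKM + 0.5), which understates the change of low genes, with limma 3.58.1 in R 4.3.3 (mean-variance trend, two-sided, Benjamini-Hochberg adjusted p under 0.05 over all genes averaging 0.5 RPKM or more). The script was tested on simulated data. A count of genes over 2-fold apart was made on group means, among genes with at least 0.5 RPKM in either group and a read in both. The replicate number as a block, other pseudocounts and limits, centring and leaving out each library were alternatives. Voom of limma on these reads was chosen after seeing the data, in place of a count test, and edgeR was not used. Sequences were read from GRCh37 with GENCODE annotation lifted to it, and from the study's oligonucleotides. Protein identity between members was not analysed here.

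The members, gene lists and roles were chosen with earlier results of these data known. Named with values in each library were *RAB12*, *QKI*, the 5 most abundant members, the 5 largest differences in each direction with 1 sign within both replicate numbers and members called under an alternative. Of the regulators, up to 3 in each direction and those called under an alternative could be named, with all genes linked to *RAB12* and its neighbours within 1 Mb, of which 1 is not reported here. Other genes with values in each library were chosen after their values were seen. Tables and plots were made with Python 3.11.15, pandas 2.3.3, numpy 2.4.6, matplotlib 3.10.9 and scipy 1.17.1.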

Additional observations from a re-analysis of the deposited data

How the results depend on the processing

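The mean log2 difference of *RAB12* was -0.91 and ran from -1.16 to -0.65 when 1 library was left out. *RAB12* was the lowest member under every alternative run but 1: without control replicate 1, *RAB27B* was lower, at -1.32 beside -1.16. With 1 library left out, 0 RAB genes and 0 regulators passed the test, and 0 to 3 of all tested genes did. The members over 2-fold apart were 2, and without 1 library between 1 and 5. The count was 1 without QKI-knockdown replicate 1, and 5 without QKI-knockdown replicate 2, where *RAB12*, *RAB42* and *RAB9B* joined. It was 1 with a mean RPKM limit of 1. *RAB39* was within the main limit through its QKI-knockdown mean alone. The mean difference of *RAB42* turned to 0.18 without control replicate 2 and to 0.16 without QKI-knockdown replicate 1. Within the replicate numbers it was -0.36 and -0.39, while *RAB42* was 1.11 higher in replicate 2 of the control and 1.08 higher in replicate 2 of the QKI-knockdown cells. Leaving out 1 library turned the sign of the mean difference in 43 of the 48 tested members. Each leave-out was made without the block and set 1 library of a group against 2 of the other. The gap between replicate numbers thus enters all these values, and they do not measure the knockdown difference alone. The 2 planned edgeR alternatives were not run. Levels under 0.5 RPKM and, in the fit without the block, the gap between replicate numbers limit what these 4 libraries can show.

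Libraries with the same replicate number deviated together from their group means, with a correlation of 0.953 over all tested genes and 0.967 over the RAB genes, but there are only 2 pairs. The numbers may stand for the 2 read lengths at which the authors sequenced, and no source used here says so. Limma with the replicate number as a block called 101 of 11829 genes (0.854%), 1 RAB gene (*RAB12*) and 1 regulator (*GCC2*). With the block and median centring it called 114 genes, 1 RAB gene and 1 regulator. Voom on the recovered reads with the block called 137 genes, 2 RAB genes (*RAB12* and *RAB27B*) and 2 regulators (*GCC2* and *MLPH*). With the block and no expression limit, 0 of 16708 genes passed, and 978 had an unadjusted p under 0.05. Without the block, voom called 0. *RAB12* was chosen for its difference in these libraries, so its calls are a description.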

Other observations

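Another family of small GTPases was set beside the Rabs. Of the ARF family, which recruits coats to membranes, 24 of 26 listed genes were tested. The ARF median log2 difference was 0.01, with a range from -0.41 to 0.17. The lowest ARF member was *ARL2*, known for its part in tubulin folding. It was at 31.3 and 11.3 RPKM in control and at 19.4 and 10.3 RPKM in QKI-knockdown cells. This gene was chosen after its values were seen and did not pass the test, and the families were not tested against each other.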
